A study of Mus musculus with 10 samples.

Results

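The baseline nascent transcription of mouse embryonic stem cells (mESC) was read from the 2 libraries of untreated cells (NT) in a TT_chem-seq time course of 10 libraries. The cells were of the E14 line and carried SOX2 fused to an FKBP degron, through which dTAG-13, a small molecule, marks the protein for breakdown. All 10 libraries share this tag, so that the baseline is that of the edited line and not of unedited E14 cells. NT cells received DMSO, the solvent, while the other 4 groups of 2 libraries received 500 nM dTAG-13 for 0.5, 1, 2 or 6 h and are not described here. Cells grew without serum on gelatin with the leukaemia inhibitory factor (LIF) and with inhibitors of MEK (PD0325901, 1 µM) and GSK3 (CHIR99021, 3 µM), and new RNA was labelled with 2 mM 4-thiouridine (4SU) for 10 min. NT replicate 1 held 14420634 and NT replicate 2 held 13053099 fragments in 40779 transcribed units (TUs), which are stretches of continuous nascent transcription on 1 strand. All 40779 TUs were used, and no sample was compared with another group. The labels do not say whether the replicates came from separate cultures.

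TT_chem-seq captures RNA made during the labelling pulse, so it reads introns, the RNA downstream of a gene's end and short-lived antisense RNA as well as exons, and it follows the rate of synthesis more closely than the stock of mature transcripts. In the naive state held by LIF and the 2 inhibitors, a network of factors around OCT4 (Pou5f1), SOX2 and NANOG keeps the pluripotency genes active, while the genes of later lineages are kept off. Output is given below as density, the fragments per kb of TU length and per 1000000 fragments of the library, so that TUs of different length can be compared. Pairs of values are those of NT replicates 1 and 2, in that order.

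The replicates ranked the TUs alike. Across the 10057 TUs that carried a gene symbol and held at least 100 fragments in each library, log2 density correlated at Pearson's r of 0.992, a value across TUs, which are not independent replicates. The log2 ratio of replicate 2 over replicate 1 had an SD of 0.19 over these TUs, and 97.8% of them lay within 0.5. For the 1473 TUs without a symbol that met the same limit, the SD of the log2 ratio was 0.29. The chi-square per degree of freedom over all TUs at this limit was 7.13, so the libraries differed by more than counting error and did not look like 1 library deposited again. The largest upward difference of a named gene was at Id3, an inhibitor of basic helix-loop-helix factors and a target of BMP signalling, with densities of 2.35 and 5.48. In the other direction, Ankrd44 had 0.124 and 0.0529.

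**Figure D1:**
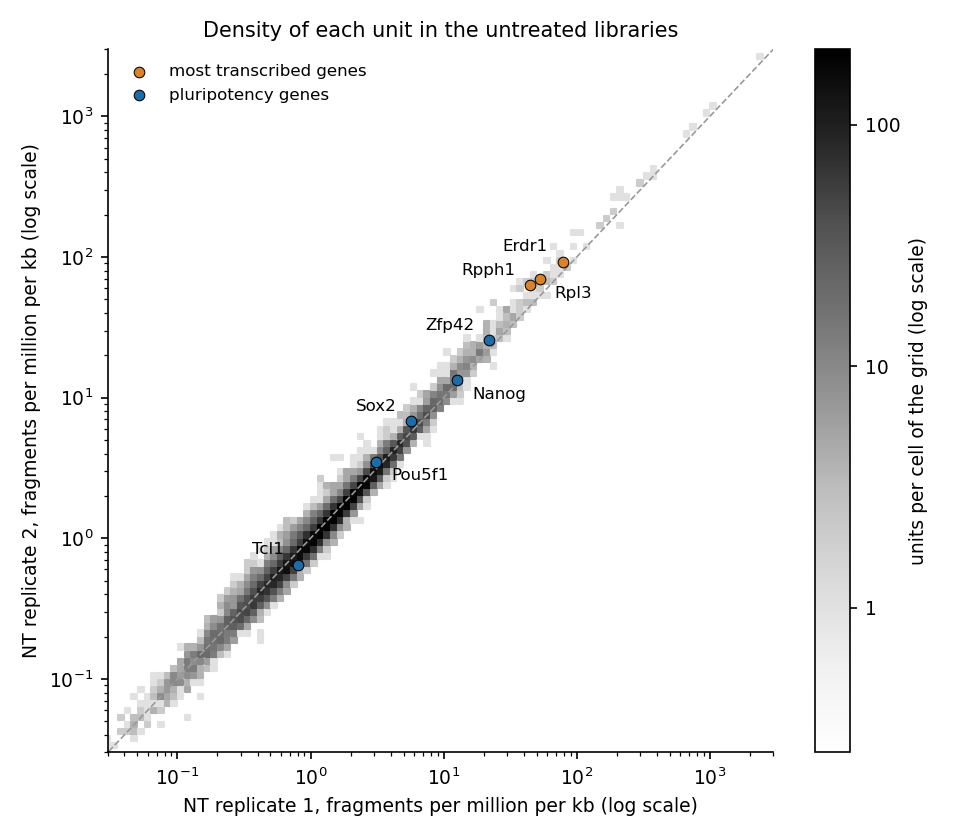
Density of TUs in NT replicate 1 (x axis) against NT replicate 2 (y axis), in fragments per kb per 1000000 fragments on log axes, for the 11530 TUs with at least 100 fragments in each library. Grey cells show how many TUs fall in each cell of the grid, orange points are 3 of the most transcribed genes, blue points are 5 pluripotency genes and the dashed line marks equal values. The points lie along the dashed line over the whole range, with Zfp42 at 21.8 and 25.7 and Erdr1 at 78.2 and 92.6.

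Most fragments lay in TUs that carried a gene symbol. TUs with a gene symbol were 16137 of 40779 (39.6%) and held 91.2% (Wilson 95% interval 91.17% to 91.20%) and 90.4% (90.34% to 90.37%) of the fragments, a mean of 90.8% ± 0.588 (SD, n = 2). These intervals cover counting error only, and the gap between the libraries was wider than either. The other 24642 TUs held 8.81% and 9.65%. TUs with a symbol were also longer and denser, with a median length of 23.6 kb against 2.59 kb and a median density of 0.723 and 0.708 against 0.228 and 0.295. Replicate 2 was the higher in 67.8% of the TUs without a symbol and in 41.7% of those with one. The share without a symbol thus depended on the library read. These are shares of whole TUs. Fragments of a TU beyond its gene were not counted apart, so the amount of RNA outside genes was not measured.

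Of the classes that the deposited annotation column gives, TUs over a single gene (16119) took 91.1% and 90.2% of the fragments. The 18 TUs that span a cluster of small genes, such as microRNA genes, took 0.122% and 0.131%. Extragenic TUs, 14893 in number, held 4.33% and 4.82% at a median density of 0.217 and 0.287. TUs antisense to a gene body (5493) held 2.15% and 2.34%, and they were the densest of the classes without a symbol, with a median of 0.280 and 0.381. The 3386 TUs antisense to a transcription start site (TSS) held 1.43% and 1.53%, and the 870 antisense to a transcription end site held 0.909% and 0.961%. Each class without a symbol had the larger share in replicate 2.

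**Figure D2:**
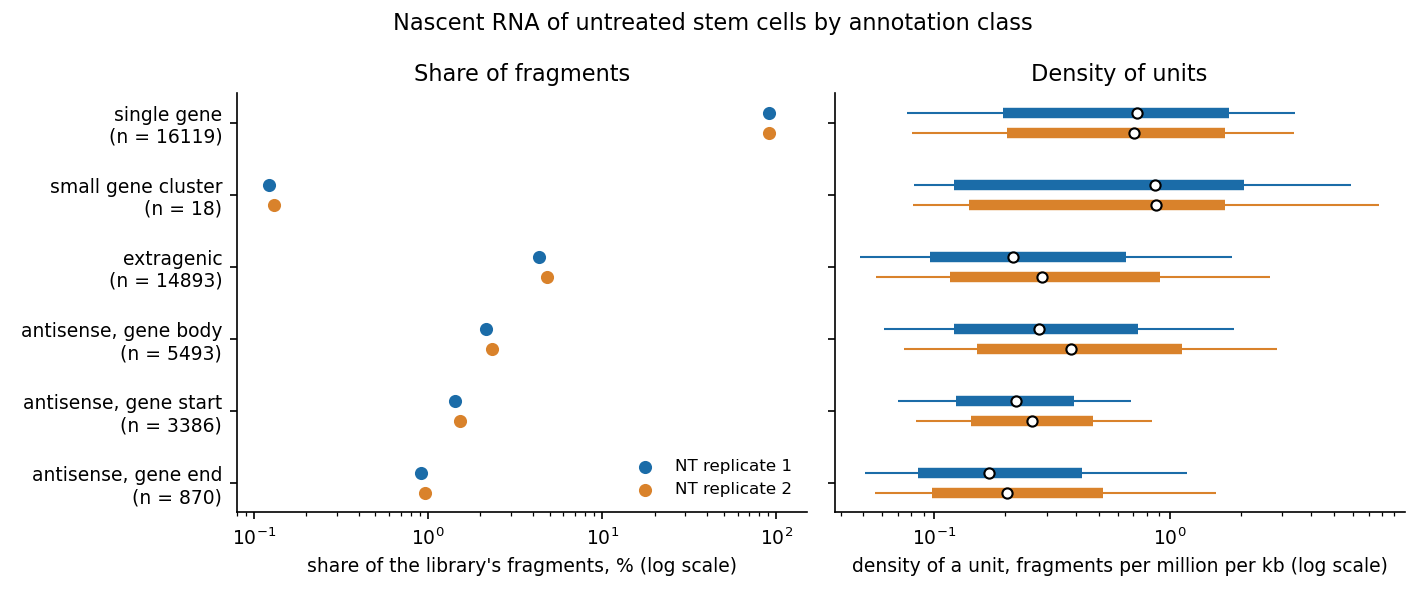
Left, share of each library's fragments (x axis, percent, log scale) in the 6 annotation classes (y axis, with the number of TUs). Right, density of the TUs of each class (x axis, fragments per kb per 1000000 fragments, log scale), where circles are medians, thick bars the middle quartiles and thin lines the 10th to 90th percentiles, for NT replicate 1 in blue and NT replicate 2 in orange. Single-gene TUs hold 91.1% and 90.2% of the fragments, and every class without a gene symbol has a lower median density than they have.

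Part of the output without a symbol lay on known genes. When the TUs without a symbol were laid over RefSeq genes of the same strand, a gene covered at least 50% of 2577 of the 24642 (10.5%), and these held 4.28% and 4.26% of all fragments. Counted as genic, they raised the share of fragments in genic TUs to 95.5% and 94.6%. The remaining TUs, whole TUs as before, held 4.54% and 5.39%. Of those on genes, 320 covered at least 50% of a protein-coding gene and had at least 50% of their length on it. These 320 held 2.80% and 2.76% of the fragments at a median density of 0.798. The TU with most fragments among them lay on Kat6b, a histone acetyltransferase, and was filed as antisense to the TSS of Gm30363 (chr14:21469526-21593983, plus strand, 12.5 and 14.3), beside a TU with the symbol Kat6b at 10.9 and 12.5. Fn1, which encodes fibronectin, was filed as antisense to the body of Atic (chr1:71578834-71653618, minus strand) at 10.3 and 11.8. Hnrnpc, an RNA-binding protein of nascent transcripts, lay in an extragenic TU at 13.7 and 13.9. Dnmt3b, a de novo DNA methyltransferase, had 1.32 and 1.35 in an extragenic TU, and the FGF receptor gene Fgfr1 had 1.17 and 1.26 in a TU antisense to another gene's body.

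Among TUs with a symbol, protein-coding genes dominated. By RefSeq gene type, 12707 TUs were protein-coding and held 85.6% and 84.5% of all fragments at a median density of 0.938, while 2417 were long non-coding RNA (lncRNA) genes with 3.47% and 3.62% at a median of 0.215. No RefSeq gene was matched for 898 symbols. Of the 16137 TUs, 13527 (83.8%) had a density of at least 0.1 in both libraries, 6315 (39.1%) of at least 1 and 267 (1.65%) of at least 10. At the low end, 1714 (10.6%) lay under 0.1 in both. A density of 0.1 is low but measurable, since 3 fragments in a TU of the median length gave 0.00882 and 0.00975.

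Output was unevenly spread. The densest 10% of the TUs with a symbol (1613) held 33.6% and 34.8% of all fragments on 7.98% of the length of these TUs. When ranked by fragments instead, the leading 10% held 47.6% and 48.5%, and 1744 TUs held 50% of all fragments. The 20 densest of any length held only 0.897% and 1.02%. By length, TUs of 30 to 100 kb took 44.9% and 43.8% of the fragments at a median density of 1.12 and 1.05. The 462 TUs under 1 kb had 0.964 and 1.49, and the 144 TUs over 300 kb had 0.295 and 0.293. The single TU with most fragments was Erdr1, with 0.221% and 0.262% of a library, followed by Lars2, the mitochondrial leucyl-tRNA synthetase, with 0.183% and 0.206%. Long genes known in pluripotent cells also ranked high by fragments, with the DNA demethylase gene Tet1 at 0.120% and 0.139%, the Polycomb cofactor Jarid2 at 0.114% and 0.141% and Esrrb at 0.118% and 0.129%.

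The densest TUs included many genes of ribosomal proteins and snoRNA hosts, in an order that rested on TU length. Of the 20 TUs with a symbol of at least 1 kb and of the highest mean density, 7 encoded cytosolic ribosomal proteins. Another 4 were by name hosts of small nucleolar RNAs (snoRNAs), which guide the chemical modification of ribosomal RNA. The highest was the predicted gene Gm14680 (chrX:62775340-62776734, minus strand) at 86.0 and 86.8, ahead of Erdr1 at 78.2 and 92.6. Among the ribosomal proteins Rpl13a led with 74.8 and 80.9, followed by Rpl4 with 59.4 and 67.0 and Rpl3 with 53.0 and 69.8. Rpl10, Rps18, Rpl17 and Rpl23 lay between 39.7 and 55.7 in both libraries. Other protein-coding genes were Npm1, the nucleolar protein nucleophosmin, with 71.2 and 74.7, the helicase of translation initiation Eif4a1 with 70.6 and 69.6, the chaperone Hsp90ab1 with 52.2 and 56.3 and the RNA helicase Ddx5 with 47.2 and 47.1. The host genes Snhg1 (65.8 and 72.4), Snhg5 (49.3 and 53.2), Gas5 (48.1 and 47.4) and Snhg4 (42.2 and 41.8) made up the snoRNA group. Zfas1, which also carries snoRNAs in its introns, had 39.7 and 46.7. The group was drawn by gene name, so any other genes of the 20 that carry snoRNAs were not counted in it. Further non-coding RNAs with other roles completed the list, the nuclear speckle RNA Malat1 with 55.2 and 64.4 and Rpph1, the RNA of ribonuclease P, with 44.2 and 63.1. With the span of the deposited transcript in place of the TU length, 0 of these 20 genes stayed among the highest 20.

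Short TUs were denser still but rested on small stretches. The 0.768-kb TU of Rn7sk, the 7SK RNA that holds the elongation factor P-TEFb inactive, had 223 and 294, and the 0.614-kb TU of the histone gene Hist2h2bb had 207 and 175. Several others covered little of the gene they are named for. The 0.142-kb TU named Cd44 (77.6 and 96.6) covered 0.156% of that gene, and the 0.845-kb TU named Il31ra (55.6 and 58.8) covered 1.44%. Their values describe these stretches and not the genes.

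Among the families, the cytosolic ribosomal proteins and the snoRNA hosts had the highest medians, which were level. Of 86 ribosomal protein genes 80 had a TU of their own, with medians of 12.5 and 15.02, against 0.723 and 0.708 over all TUs with a symbol. They took 1.50% and 1.80% of all fragments, and 74 of the 80 were in the densest 10%. Of the 79 with enough fragments, 77 were higher in replicate 2, with a median log2 ratio of 0.26. The lowest was Rpl3l, a muscle paralogue of Rpl3, at 0.0592 and 0.0748. The 15 measured snoRNA hosts had medians of 12.5 and 15.01, from Snhg11 at 0.598 and 0.605 to Snhg12 at 98.4 and 99.7 in a 0.790-kb TU. Translation initiation and elongation factors (64 TUs) had medians of 3.66 and 3.65, with Eif4a1 the highest and the oocyte factor Eif4e1b the lowest at 0.266 and 0.2002. Mitochondrial ribosomal proteins were much lower than the cytosolic ones, with medians of 1.90 and 1.81 over 73 TUs, from Mrpl23 (0.473 and 0.366) to Mrps18b (8.15 and 7.81).

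Many cytosolic ribosomal protein genes start in a run of pyrimidines that begins with C at the start site, the terminal oligopyrimidine tract through which their translation is controlled. Of the 60 ribosomal protein TUs whose promoter was in the RefSeq table (build GRCm38.p6), 12 (20%) had C and at least 4 pyrimidines from the annotated start, against 2.51% of all 32851 promoters. Within 3 bases of the start the counts were 23 of 60 (38.3%) and 11.5%. The stretches below show the tract at 6 genes, with the pyrimidine run in capitals. Rack1 was added by name to the ribosomal protein genes. The stretches run from 40 bases before the start to 20 bases from it, 5′ to 3′ on the strand of the gene. They lie at chr17:33955646-33955705 (minus strand), chr11:48800320-48800379 (plus strand), chr7:118116128-118116187 (minus strand), chr19:6057907-6057966 (plus strand), chr14:18270967-18271026 (minus strand) and chr9:120571477-120571536 (plus strand), in the order printed.
Rps18: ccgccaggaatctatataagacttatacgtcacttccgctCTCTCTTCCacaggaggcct
Rack1: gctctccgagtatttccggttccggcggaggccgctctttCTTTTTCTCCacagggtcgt
Rps15a: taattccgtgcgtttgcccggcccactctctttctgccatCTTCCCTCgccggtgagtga
Fau: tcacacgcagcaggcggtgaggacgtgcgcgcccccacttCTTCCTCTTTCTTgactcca
Rpl15: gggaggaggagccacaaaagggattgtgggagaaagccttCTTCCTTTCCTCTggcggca
Rpl14: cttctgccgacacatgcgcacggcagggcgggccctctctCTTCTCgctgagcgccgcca
The run was 9 bases long at Rps18, 13 at Fau and at Rpl15 and 6 at Rpl14. Their densities were 47.4 and 47.1 for Rps18, 19.3 and 21.2 for the ribosomal scaffold Rack1, 16.3 and 19.8 for Rps15a, 14.9 and 20.6 for Fau, 13.3 and 17.1 for Rpl15 and 13.7 and 15.3 for Rpl14. A match describes these letters and is no measure of translation.

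Replication-dependent histone genes, which are intronless and active in S phase, were the other dense family, with 53 of 67 in a TU and medians of 6.57 and 7.62. Of these, 37 were in the densest 10%, and 36 of 44 with enough fragments were higher in replicate 2. The linker histone genes Hist1h1b (18.6 and 23.7) and Hist1h1c (17.1 and 23.8) were high, whereas the testis gene Hist1h1t had 0.356 and 0.502 and the TU named Hist3h2a 1 and 0 fragments. That 0.37-kb TU covered 1.38% of the deposited Hist3h2a transcript and does not measure the gene. Histone genes have near-identical copies, and reads that map equally well to several of them were removed by the mapping-quality filter, so their values are uncertain. Of 47 with a promoter in the table, 30 (63.8%) held TATAAA on either strand, against 13.6% of all promoters of the same 300 bases, and 42 (89.4%) held CCAAT, against 37.4%. ATGCAAAT, the octamer bound by OCT factors, was in 14 (29.8%), against 1.74%. These counts take the letters anywhere in the 300 bases and on either strand, so they are not counts of boxes at a set distance. On the strand of the gene, TATAAA began 10 bases before the start at Hist1h2bb and 43 at Hist1h2bg. At Hist1h1c it was absent from 60 bases before the start to 20 bases from it. The stretches below cover this range for 5 of the genes where it began 26 to 33 bases before the start, with the TATA box in capitals. In build GRCm38.p6 they lie at chr13:21780606-21780685 (minus strand) and, on the plus strand, at chr13:23763608-23763687, chr13:23554972-23555051, chr13:23752285-23752364 and chr13:21717568-21717647.
Hist1h1b: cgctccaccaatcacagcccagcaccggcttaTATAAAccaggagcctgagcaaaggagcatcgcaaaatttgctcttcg
Hist1h1a: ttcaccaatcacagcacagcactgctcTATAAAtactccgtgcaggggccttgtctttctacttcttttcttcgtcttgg
Hist1h1d: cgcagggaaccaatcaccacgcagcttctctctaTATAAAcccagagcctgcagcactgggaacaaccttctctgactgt
Hist1h3b: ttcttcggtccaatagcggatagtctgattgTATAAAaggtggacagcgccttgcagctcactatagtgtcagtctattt
Hist1h3h: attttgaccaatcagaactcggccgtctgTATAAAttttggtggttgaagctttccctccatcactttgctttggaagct
The box began 28 bases before the start at Hist1h1b, 33 at Hist1h1a, 26 at Hist1h1d, 29 at Hist1h3b and 31 at Hist1h3h. In this order, their densities were 18.6 and 23.7, 18.5 and 20.3, 16.8 and 20.8, 14.4 and 17.2, and 12.6 and 18.0, each higher in replicate 2.

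Other housekeeping machinery lay lower. The proteasome (36 TUs) had medians of 3.40 and 3.28, from the interferon-induced subunit Psmb9 at 0.0353 and 0.0650 to Psmb3 at 6.73 and 6.86. The 13 subunits of RNA polymerase II ranged from Polr2h at 0.765 and 0.650 to the catalytic subunit Polr2a at 11.3 and 10.3, with medians of 2.35 and 2.25. General transcription and elongation factors (27 TUs) all had a mean density above 1, from Mnat1 at 1.08 and 1.04 to Ccnt1, the cyclin of P-TEFb, at 6.45 and 6.31. Among the 32 tRNA synthetases Lars2 was far above the others, at 18.2 and 20.6 against 7.48 and 7.84 for Aars. Chaperones spread widely, from Hspb2 with 0 and 2 fragments to Hsp90ab1. Among the cyclins Ccnb1, which drives entry into mitosis, led with 18.3 and 18.5, Ccna2 had 6.52 and 6.37, and the G1 cyclin Ccnd2 was the lowest with 0.0693 and 0.0666.

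**Figure D3:**
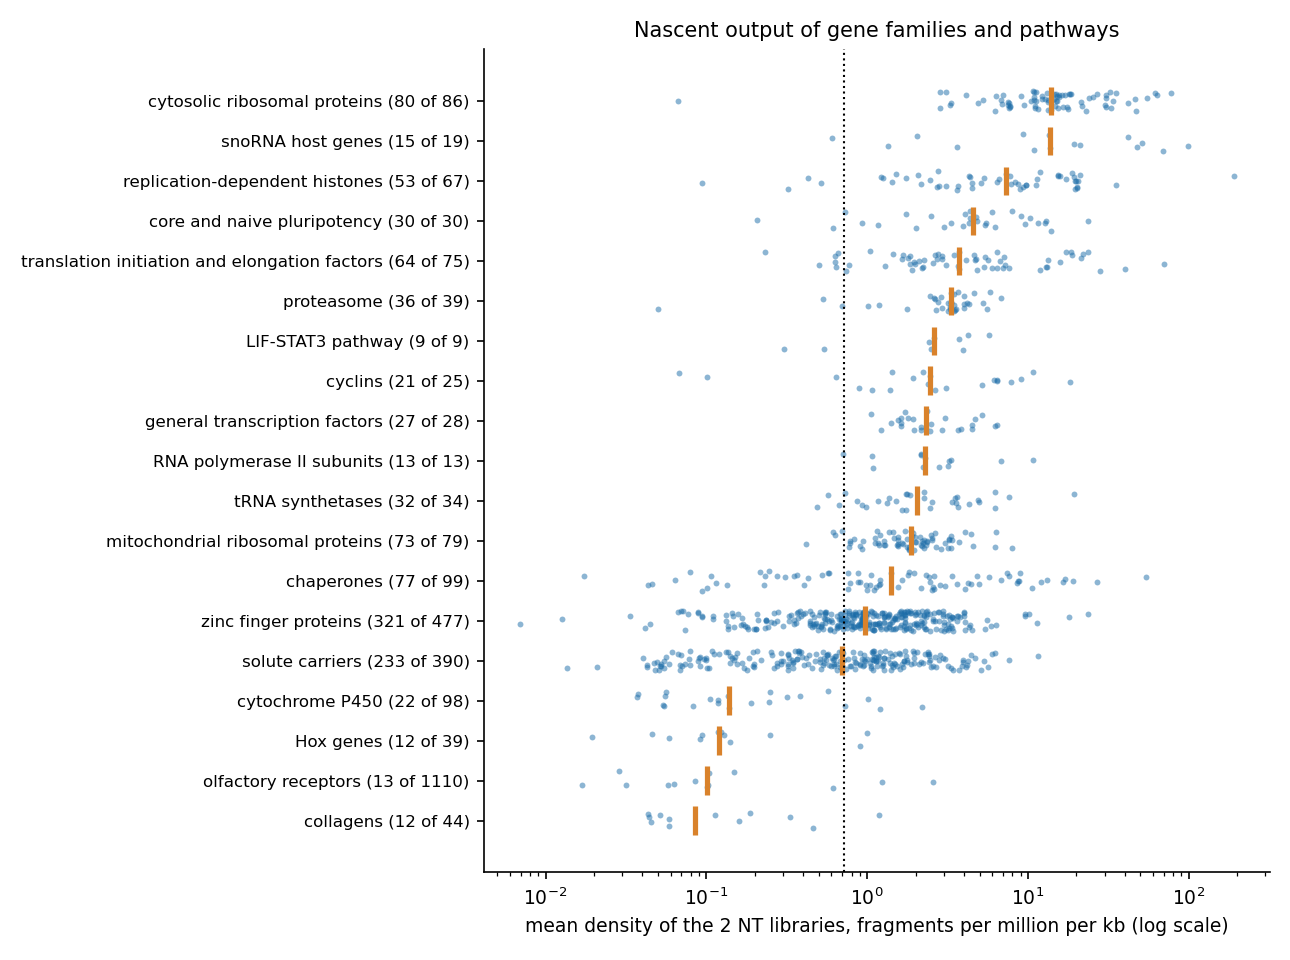
Mean density of the NT libraries (x axis, fragments per kb per 1000000 fragments, log scale) for the TUs of 19 families and pathways (y axis, with the number of members in a TU of their own of all listed). Each blue point is a TU, orange bars are medians of the family and the dotted line is the median over all TUs with a symbol, 0.721. Cytosolic ribosomal proteins and snoRNA hosts lie highest, and the Hox genes, olfactory receptors and collagens lowest.

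The label of the cells was set beside their markers, in a list chosen with earlier results of these data known. Over all protein-coding genes of RefSeq, 50.6% had a density of at least 0.1 in both libraries. All 30 genes of the core and naive list had a TU of their own and a density of at least 0.1 in both libraries, with medians of 4.56 and 4.80, and 20 of them were in the densest 10% of all TUs with a symbol. Zfp42 (Rex1), a classic marker of the naive state, was the highest with 21.8 and 25.7. The core factors had lower values, with 12.7 and 13.3 for Nanog, 5.69 and 6.78 for Sox2 and 3.13 and 3.51 for Pou5f1. Next to Zfp42 stood the T-box factor Tbx3 (12.4 and 15.6), the threonine dehydrogenase Tdh (12.004 and 13.6), Fbxo15 (11.02 and 12.1), Tfcp2l1 (9.67 and 10.8) and the nuclear receptor Esrrb (9.14 and 10.0). The KLF factors followed with 8.18 and 9.81 for Klf4, 7.74 and 8.15 for Klf2 and 4.90 and 5.90 for Klf5. Among the signalling genes of the list, Gdf3 had 5.75 and 6.20, the Nodal co-receptor Tdgf1 5.15 and 5.76, Nodal 4.62 and 4.90 and Fgf4 4.17 and 3.96. Lower in the list were Dppa5a (1.84 and 2.21), Lin28a (0.731 and 0.504), Tcl1 (0.807 and 0.647) and, at the bottom, Dppa3 (Stella) with 48 and 54 fragments and 0.183 and 0.227. Replicate 2 was the higher for 22 of the 28 members with enough fragments.

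Several of these TUs ran well past the annotated genes, and the density is that of the whole TU, since fragments within and beyond the gene were not counted apart. The Pou5f1 TU (chr17, plus strand) was 49.9 kb long over a RefSeq gene of 4.75 kb, with 20.3 kb before and 24.8 kb after it. The Sox2 TU began at the annotated start and went on for 41.5 kb past the end of a gene of 2.47 kb. The Nanog TU (32.8 kb) reached 19.7 kb past the gene. Comparisons among these genes depend on the length taken.

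Promoters of the pluripotency genes varied in sequence. The median CpG count of the 300-base promoters was 11 for the 17 genes of the list with a promoter in the table, against 19 for all TUs with a symbol, but single genes ranged widely, with 27 at Sox2, 40 at Klf4 and 7 at Esrrb. To show this range, the 120 bases before the annotated start are given on the strand of the gene with each CpG in capitals. They lie in build GRCm38.p6 at chr3:34649875-34649994 (plus strand), chr4:55532476-55532595 (minus strand) and chr12:86421524-86421643 (plus strand).
Sox2: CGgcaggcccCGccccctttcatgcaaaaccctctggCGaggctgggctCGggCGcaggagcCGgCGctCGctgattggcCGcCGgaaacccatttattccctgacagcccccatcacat
Klf4: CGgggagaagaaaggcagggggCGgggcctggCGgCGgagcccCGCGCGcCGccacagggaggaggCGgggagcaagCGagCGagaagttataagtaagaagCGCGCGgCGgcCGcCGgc
Esrrb: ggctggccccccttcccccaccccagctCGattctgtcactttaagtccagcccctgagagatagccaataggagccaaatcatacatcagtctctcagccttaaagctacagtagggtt
Sox2 had 10 CpGs in this stretch, Klf4 17 and Esrrb 1, while their densities were 5.69 and 6.78, 8.18 and 9.81, and 9.14 and 10.0. The CpG count did not follow the order of these 3 densities. Over all 12079 TUs with a promoter in the table, by contrast, the median CpG count rose from 10 in the lowest 10% by density to 24 in the highest 10%, and the share with GGGCGG on either strand rose from 44.7% to 67.1%, against 35.7% of all promoters.

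Genes of the pathways that the medium acts on varied widely. For LIF, the receptor genes Lifr (2.58 and 2.38) and Il6st (3.94 and 3.94) and the transducer Stat3 (2.64 and 2.57) were denser than the kinase gene Jak1 (0.565 and 0.507). Of the targets, Pim1 had 5.52 and 5.95, Bcl3 4.42 and 4.06 and Socs3 2.43 and 2.45, and Gbx2 was the lowest of the 9 genes at 0.290 and 0.317. In the FGF-ERK pathway, whose kinase MEK is inhibited here, the kinase genes Map2k2 (3.30 and 3.31) and Map2k1 (2.20 and 1.99) were well transcribed. The 9 targets of the list varied widely. Etv5 was the highest of the 18 genes with a TU, at 7.42 and 8.18, and Spry2 (1.27 and 1.49), Etv4 (1.27 and 1.15) and Spred1 (1.01 and 1.06) were also above 1. The immediate-early genes and some feedback inhibitors were lower. Egr1 had 5 and 5 fragments (0.0957 and 0.106), Fos 12 and 22 (0.164 and 0.333), Dusp4 27 and 8 (0.129 and 0.0423), Spry4 0.105 and 0.225 and Dusp6 0.681 and 0.967. Fgfr2 was low at 0.120 and 0.0949, against 1.17 and 1.26 for Fgfr1. For Wnt, where the inhibited kinase is GSK3, 7 of the 12 TUs had a mean density of at least 1. In the cascade these were Ctnnb1 (6.29 and 5.95), Tcf7l1 (3.17 and 3.32), Gsk3b (2.93 and 3.12), Apc (2.35 and 2.45) and Axin1 (2.16 and 1.89). Tcf7 was lower, with a mean of 0.726. Of the Wnt targets, Axin2 had 1.38 and 1.43, Sp5 1.15 and 1.63, Cdx1 0.663 and 0.481 and Nkd1 0.0479 and 0.0479. Notum had a mean of 0.529 and Lgr5 of 0.748, in a TU over 1.83% of its deposited transcript. Lef1 and T had no TU on their strand.

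Host genes of microRNAs include one of the best known signatures of mESC. Of 1005 hairpins in the RefSeq table, 675 (67.2%) lay in a TU of the same strand, 384 in TUs with a density of at least 1 and 26 in TUs of at least 10. A microRNA acts through its seed, bases 2 to 8, so the main products are shown by shared seed, with the seed in capitals. The miR-290 to miR-295 hairpins lay in the TU named D7Ertd143e (chr7:3198406-3247086, plus strand, 13.2 and 15.1), and miR-302 with miR-367 in a 4.32-kb TU (4.08 and 6.91, from 254 and 390 fragments). Both clusters carry the same seed.
miR-291a-3p: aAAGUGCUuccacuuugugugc
miR-294-3p: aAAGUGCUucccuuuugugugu
miR-295-3p: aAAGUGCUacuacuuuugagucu
miR-302b-3p: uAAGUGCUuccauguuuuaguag
miR-302d-3p: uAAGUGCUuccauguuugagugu
The miR-17 cluster in Mir17hg (8.43 and 7.92) holds a seed shifted by 1 base and, at miR-92a, a seed shared with miR-367.
miR-17-5p: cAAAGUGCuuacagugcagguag
miR-20a-5p: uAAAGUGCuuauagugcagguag
miR-92a-3p: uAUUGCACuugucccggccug
miR-367-3p: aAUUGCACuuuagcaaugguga
In mESC, LIN28 proteins are known to block the processing of the let-7 family. The cluster of let-7a-1, let-7f-1 and let-7d had 10.7 and 9.46, and let-7g in its host Wdr82 had 9.08 and 10.3, whereas let-7c-1 had no TU. Lin28a itself had 0.731 and 0.504.
let-7a-5p: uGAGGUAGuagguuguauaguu
let-7g-5p: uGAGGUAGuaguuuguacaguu
let-7c-5p: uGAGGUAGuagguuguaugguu
Of tissue microRNAs, the neural miR-9-2 lay in C130071C03Rik with 15 and 15 fragments (0.0646 and 0.0714), and its product is shown for contrast.
miR-9-5p: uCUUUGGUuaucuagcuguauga
The muscle genes Mir1a-1 and Mir133a-1, the liver gene Mir122 and the immune gene Mir155 had no TU on their strand. A host's density covers the whole TU and does not measure the mature microRNA.

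Most genes of the lineage lists had no TU or a low one. Over 107 genes of the neural, mesoderm, endoderm, trophoblast, germline and differentiated-tissue lists, each counted once, 76 had either no TU of their symbol or a density under 0.1 in both libraries, while 28 had at least 0.1 in both and 3 were split. The share of 71.0% is to be read against 47.2% of all 21774 protein-coding genes of RefSeq, of which 9079 (41.7%) had no TU of their symbol. Of the 76, 56 had no TU on their strand at all, 13 had a TU under 0.1 and 7 lay within a TU of another name or of no symbol. TUs were runs of bins in the high of 2 transcription states, from all 10 libraries pooled, and were kept above a minimum of fragments. A gene without a TU of its symbol may have been in the low state, under that minimum or part of another TU, and is not shown to be at 0. In bulk RNA, fewer cells of a type and less RNA per cell cannot be told apart.

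Among the lineage lists, endoderm had the lowest median. Of its 16 genes, 7 had a TU under 0.1 in both libraries and 7 had no TU. The primitive endoderm markers were all under 0.1, with 0.0815 and 0.0521 for Gata4, 0.0391 and 0.0407 for Gata6 and 0.0432 and 0.0954 for Sox17. Sox7 had 5 and 0 fragments, where a count of 0 allows a density of up to 0.0359. The Gata4 TU covered 34.9% of its deposited transcript. Foxa1, Foxa2, Pdx1, Afp, Alb, Ttr and Cer1 had no TU. In the neural list, 4 of 20 genes reached 0.1, led by the neuronal tubulin Tubb3 (1.31 and 1.42), the intermediate filament Nes (0.919 and 0.793) and Pax6 (0.335 and 0.525). Proneural factors such as Neurog1, Neurog2 and Neurod1 had no TU, and Map2 was the lowest measured with 0.0446 and 0.0421 in a TU over 23.8% of the gene. For mesoderm, 5 of 22 reached 0.1, with Gsc (0.485 and 0.602) and Eomes (0.216 and 0.276) ahead of the VEGF receptor Kdr (0.198 and 0.268). The Gsc TU reached 28.4 kb past the end of a deposited transcript of 2.03 kb. Tbx5 had 2.91 and 2.52, but from 14 and 11 fragments in a 334-bp TU over 0.375% of the gene. T, Mesp1, Hand1, Nkx2-5, Myod1 and Myf5 had no TU.

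The share of genes at 0.1 or above in both libraries was 50.6% over all protein-coding genes of RefSeq. In the trophoblast list 7 of 17 reached 0.1 in both. Tfap2c (2.84 and 2.42), Krt8 (0.527 and 0.932) and Gata3 (0.418 and 0.751, from 24 and 39 fragments in a TU over 10.9% of the gene) led. The defining factor Cdx2 had 1 and 0 fragments, where 0 allows up to 0.0586, and Elf5 had no TU. In the germline list 9 of 12 reached 0.1 in both, and whether either list differs from the share of 50.6% was not tested. Kit, the receptor for stem cell factor, was the highest with 8.75 and 9.04, followed by the RNA-binding protein Dazl with 1.86 and 1.60 and the synaptonemal protein Sycp3 with 0.906 and 0.836 in a TU that began 80.4 kb before the gene, and Sycp1 was the lowest at 0.0324 and 0.0280. Several genes of both lists, among them Kit and Tfap2c, are also known in pluripotent cells, and the lists are not exclusive. Of 24 genes of differentiated tissues, 3 reached 0.1, with Mbp at 0.712 and 0.726, Krt10 at 0.429 and 0.374 in a TU of which 16.02% lay in the gene, and Cd3e at 0.129 and 0.136, and 16 had no TU, including Alb, Ins1, Ins2, Myh6, Myh7 and Ckm. A further 4 lay within longer TUs of neighbours, as Apoa1 did in that of Sik3 (1.08 and 1.096), so that the value belongs to the neighbour.

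**Figure D4:**
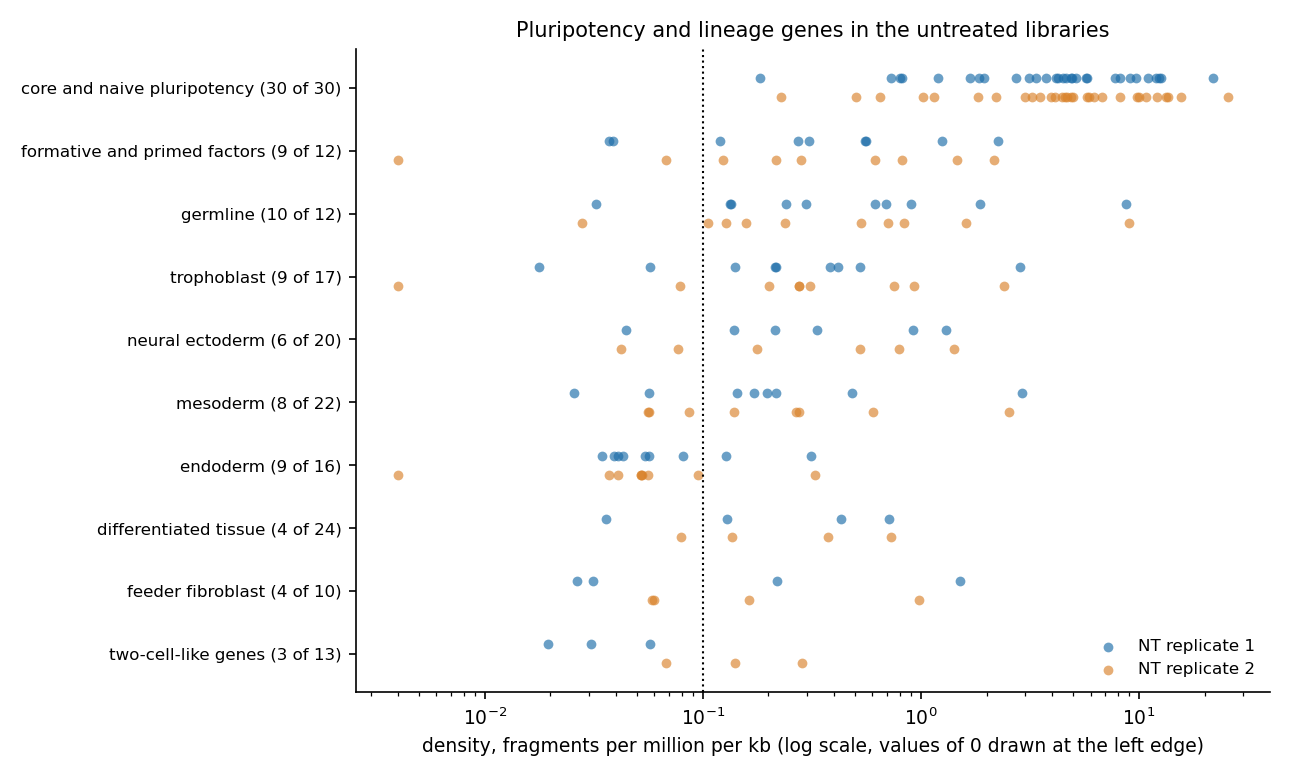
Density (x axis, fragments per kb per 1000000 fragments, log scale) of the genes of 10 lists (y axis, with the number in a TU of their own of all listed) in NT replicate 1 (blue) and NT replicate 2 (orange), with values of 0 drawn at 0.004 and the dotted line at 0.1. Each point is a gene. All 30 pluripotency genes lie to the right of the line in both libraries, while 7 of the 9 endoderm genes with a TU lie to its left in both.

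Genes of other cell states ranged from no TU to above 1. Of the formative and primed genes, which rise as cells leave the naive state, Fgf5 and Fgf15 had no TU, Pou3f1 had 3 and 5 fragments and Sox3 1 and 0, in a TU where 0 allows up to 0.129. Zic2 (2.25 and 2.17) and Otx2 (0.556 and 0.619) were transcribed. Of 13 genes of the 2-cell-like state, a rare state of mESC cultures, 3 had a TU, beside 12695 of 21774 protein-coding genes, and none of the 3 reached 0.1 in both libraries. The level of the others was not measured. Zscan4d had 4 and 18 fragments and Zscan4a 1 and 2, while Zscan4c, Zscan4f and Zfp352 had no TU. The Zscan4 copies are near-identical, and their counts are subject to the same mapping filter as the histones. Feeder fibroblasts were represented by Col1a1 with 7 and 12 fragments and Thy1 with 2 and 4, and Col1a2, Col3a1 and Postn had no TU. Vim (1.52 and 0.983) and Pdgfrb (0.220 and 0.163) were the 2 of 10 genes of that list at or above 0.1.

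In some large families few members had a TU. Of 1110 olfactory receptor symbols, 13 had a TU, with medians of 0.0930 and 0.0721. Of 354 vomeronasal receptors 12 did, with medians of 0.280 and 0.255, and Vmn2r3 led them with 9.61 and 15.6 from 32 and 47 fragments. The highest olfactory receptor by name, Olfr985 at 2.58 and 2.56, lay in a TU of 137 kb of which the gene made up 0.817%. Of 39 Hox genes, which are held by Polycomb in mESC, 12 had a TU, with medians of 0.106 and 0.101. Hoxb9 led with 0.657 and 1.35, from 101 and 188 fragments, Hoxc13 (0.883 and 0.927) lay in a TU of 92.9 kb over a gene of 7.69 kb, and Hoxd3 was the lowest with 2 and 9 fragments. Collagens (12 of 44) ranged from Col5a2 at 0.0443 and 0.0419 to Col20a1 at 1.25 and 1.11. Zinc finger genes named Zfp lay near the level of protein-coding genes in general. Of 477, 321 were in a TU, with medians of 1.05 and 0.927, beside 12695 of 21774 for all protein-coding genes and medians of 0.961 and 0.911 for their TUs.

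Long non-coding RNAs spanned the whole range. Of 23 named lncRNA genes, 14 had a TU of their own, and 8 of these were in the densest 10%. Below Malat1 and Gas5 came Dancr (11.3 and 13.8) and Neat1, the scaffold of paraspeckles (11.4 and 13.1). At the X inactivation centre, Tsix, the antisense repressor of Xist, had 9.08 and 11.2 over 59.4 kb, while the TU on Xist held 10 and 4 fragments, Ftx had 0.298 and 0.280 and Jpx 5 and 4 fragments. In the imprinted cluster of chromosome 12, Meg3 (2.49 and 2.16), Rian (3.63 and 3.44) and Mirg (4.19 and 3.94) were all transcribed, as was Kcnq1ot1 (3.40 and 2.82). H19 lay in the TU of its own microRNA Mir675 with 5 and 21 fragments. The pluripotency-associated transcript Platr3 had 6.34 and 6.93 and Platr11 1.33 and 1.53 in a TU over 9.15% of the gene, and a TU without a symbol over part of Lncenc1 had 19.9 and 19.6, the highest among TUs antisense to a gene end with at least 1 kb and 100 fragments in each library. Hotair, Hottip and Miat had no TU.

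Antisense TUs were in most pairs less dense than the TU with a symbol that they faced. Of 9749 antisense TUs, 7796 overlapped a TU with a symbol on the other strand, and the median ratio of their density to that of the gene was 0.244 and 0.326. The ratio was lowest at the TSS, with 0.161 and 0.1998, and highest in gene bodies, with 0.351 and 0.509. In 20.9% of the pairs the antisense TU was the denser in both libraries, and in 9.76% of those at a TSS. With only the 2144 antisense TUs of at least 20 fragments in each library, a limit chosen after seeing the data, the median ratios were higher, at 0.383 and 0.446 over the 3 classes, 0.247 and 0.282 at the TSS, 0.603 and 0.634 at gene ends and 0.606 and 0.647 in gene bodies. The antisense TU was then the denser in both libraries in 30.2% of all pairs and in 18.0% of those at a TSS. The antisense classes also hold TUs on a gene of their own strand, which were not taken out of these pairs. RefSeq genes of that strand covered at least 50% of 281 in gene bodies, 273 at a TSS and 114 at gene ends. In this order, they held 47.4% and 43.3%, 55.1% and 51.7%, and 48.5% and 46.0% of the fragments of their classes. The share of genes with an antisense TU at the start rose with the density of the gene, from 3.23% in the lowest 10% to 28.3% in the highest 10%. Over Sox2, a 35.8-kb antisense TU had 333 and 412 fragments (0.646 and 0.883), and over Nanog an antisense TU had 0.559 and 0.699. The antisense TU over Esrrb had 0.605 and 0.744. The densest antisense TU of at least 1 kb lay inside Jarid2 (chr13:44868746-44870169, minus strand) at 703 and 762, which was 135 and 118 times the density of Jarid2 itself, and the next in gene bodies had 14.8 and 19.3 (chr2:172508860-172510390, minus strand). At start sites the leaders were chr9:108287613-108290291 (minus strand, 13.9 and 18.8), the TU over Kat6b and chr9:115345946-115363600 (minus strand, 12.01 and 12.4).

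Small dense TUs without a symbol were rare but deep. At lengths of at least 300 bp, 55 had a density of at least 20 and at least 100 fragments in each library, with a median length of 493 bp, and together they held 0.380% and 0.434% of the fragments. The highest was extragenic, at chr3:62159047-62159490 (plus strand), with 1036 and 1140. Of the 55, 11 (20%) matched the spliced transcript of a gene elsewhere over at least 80% of their length at 95% identity or more, among them copies of Rps24, Rpl31, Rpl35, Fau and Eif2s2, as processed pseudogenes do, against 25 of 139 (18.0%) of the TUs of lower density that were no longer than the longest of them. The latter had a median length of 2679 bp, so the sets also differed in length. Reads of such copies cannot be told from reads of the parent gene with certainty. Of the extragenic TUs of at least 1 kb, chr18:85697627-85698655 (minus strand) led with 228 and 267, ahead of chr9:3257722-3259319 (minus strand) with 175 and 189 and chr14:19277810-19279767 (plus strand) with 60.6 and 63.2.

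Nascent RNA went on past gene ends. Over 16119 single-gene TUs, the TU ended a median of 5.43 kb beyond the end of the transcript deposited with it, and 78.3% ended more than 1 kb and 29.96% more than 10 kb beyond it. By density, the median reach was near 0 in the lowest 10%, was largest in group 8 of 10 at 9.11 kb and was 7.92 kb in group 10. That transcript was shorter than 90% of the RefSeq gene in 4518 (30.8%) of the 14652 TUs that could be compared. Measured from the end of the whole RefSeq gene, a choice made after seeing the data, the median was 4.72 kb over these 14652, and groups 8, 9 and 10 had 7.87, 8.02 and 7.58 kb. Starts were closer to the annotation, with 64.2% within 1 kb of the start of the deposited transcript. Deeper TUs are also easier to follow to their end, and the part of depth in this trend was not tested.

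**Figure D5:**
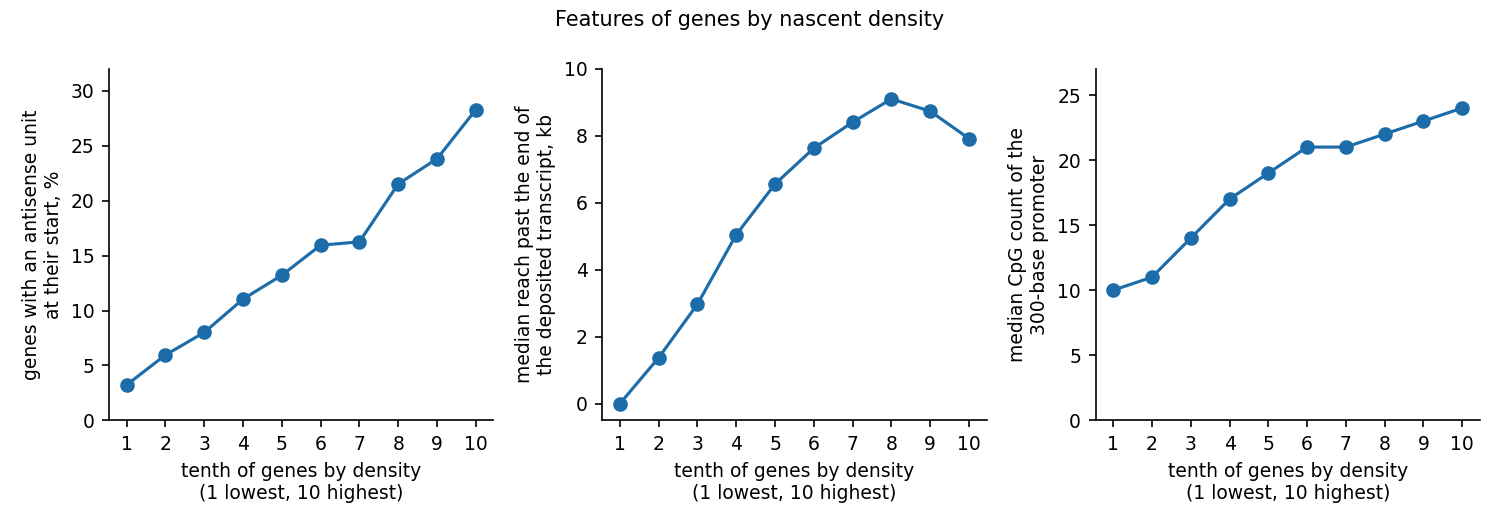
Genes with a TU in 10 equal groups by mean density (x axis, 1 lowest to 10 highest), each point 1 group. Left, percent of genes with an antisense TU at the start; middle, median distance in kb by which the TU runs past the end of the deposited transcript; right, median CpG count of the 300-base promoter, over the 12079 genes with a promoter in the table. The antisense share rises from 3.23% to 28.3%, the reach peaks at 9.11 kb in group 8 and the CpG count rises from 10 to 24.

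Chromosomes differed more in the number of genes than in the density of each. Over the autosomes, fragments per 1000000 and per Mb of chromosome ranged from 284 (chromosome 3) to 679 (chromosome 11), which also had the most TUs with a symbol per Mb, 10.5. The median density of TUs with a symbol varied only from 0.604 on chromosome 1 to 0.905 on chromosome 17. The X chromosome, present once in male E14 cells, had 129 and 132 fragments per 1000000 and per Mb and a median density of 0.493 and 0.468, against an autosomal median of 0.746. On the Y chromosome Erdr1 (chrY:90786200-90814453), which lies in the region shared with X, and a TU near it held most of the signal, with 31848 and 34167 fragments at Erdr1. The plus strand held 51.4% and 51.5% of all fragments.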

How the data were processed

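TT_chem-seq libraries of nascent RNA number 10, of which the 2 of untreated cells are described. The deposited values are whole-number counts of fragments per TU. Per the submitters' processing notes and the study's methods, the authors used the mm10 genome, alignment with BWA 0.7.17-r1188, SAMtools 1.10 for the mapping-quality filter and Picard 2.12.0 for duplicate removal, split alignments by strand, defined TUs with a 2-state hidden Markov model on all libraries pooled per strand, kept TUs above a minimum of fragments, linked each TU to RefSeq genes and counted its fragments. TUs therefore depend also on the dTAG-13 libraries, and RNA outside TUs was not counted. Of 14696 symbols found in RefSeq, 7131 had a deposited transcript start 1 base below the RefSeq start and 184 had an equal one, and coordinates of TUs are printed as deposited.

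Density was computed as fragments per 1000000 fragments of the library per kb (end minus start plus 1) with Python 3.11.15, NumPy 2.4.6 and pandas 2.3.3, for each library, and figures were drawn with matplotlib 3.10.9. The computation was tested on simulated data. Totals of 14420634 and 13053099 fragments set the precision, and 95% Wilson intervals cover counting error only. The labels put both samples in 1 group, so no test was run and values are descriptions. Gene lists and the rule for named genes were chosen with earlier results of these data known. Named genes were the 20 TUs with a symbol, of at least 1 kb and 100 fragments in each library, of the highest mean density, the 3 leading TUs of each class without a symbol, the highest and lowest members of lists and families, the members of the pluripotency, LIF, FGF-ERK and Wnt lists, and up to 3 leading lineage genes at 0.1 or more. Other genes named, such as Id3, Ankrd44, Cd44, Il31ra, Tet1, Fn1 and the genes shown with sequence, were chosen after their values were seen. Annotation used RefSeq of GRCm38.p6 and GENCODE M21 on the same strand. Promoters (250 bases before to 50 after the start) and microRNAs came from RefSeq tables and matched 12079 of 16137 TUs with a symbol (74.9%) and 1005 hairpins. Copies were sought with BLAST 2.17.0, and sequence was read with samtools 1.23.1 and pysam 0.24.0. Alternatives were TMM factors from edgeR 4.0.16 (R 4.3.3), filters on fragments and length, other thresholds, the span of the deposited transcript as length, and each library alone. A few genes that these rules would name are not reported here.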

Additional observations from a re-analysis of the deposited data

How the results depend on the processing

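No paired analysis was possible because the values come from 1 group and no test was run. The share of fragments in TUs with a gene symbol, 90.8% as the mean of the libraries, was 91.1% with only TUs of more than 10 fragments in at least 2 of 10 libraries, 91.6% with TUs of at least 1 kb, and, under alternatives chosen after seeing the data, 95.04% with RefSeq and 95.4% with GENCODE M21 genes over at least 50% of a TU counted as genic. From each library alone it ranged from 90.4% to 91.2%. No class share moved by more than the SD of the replicates under the fragment filter. The median density of TUs with a symbol, 0.716 as the mean of the libraries' medians, was 0.810 with the fragment filter, 0.703 at 1 kb or more and 0.680 with TMM factors, and that of TUs without one, 0.261, was 0.352, 0.174 and 0.248. From each library alone (without the other replicate) these medians were 0.708 to 0.723 and 0.228 to 0.295. The leading 10% held 34.2% by density, 34.9% at 1 kb or more, 33.5% to 34.7% from each library alone and 48.1% when ranked by fragments. The number of lineage genes under the limit, 76 at 0.1, was 68 at 0.05, 83 at 0.2, 76 over the span of the deposited transcript, 76 and 79 from each library alone and 71 when genes in a TU of another name took its density (chosen after seeing the data). Of the 20 most transcribed genes, 20 were also found from each library alone, 14 at 5 kb or more, 12 with no minimum length and 0 with the span of the deposited transcript as length, where short microRNA and snoRNA genes such as Mir706 and Snord93 within long TUs led. That order of genes rests on the length used. The median density ratio of antisense TUs to the gene they face, 0.285 as the mean of the libraries, was 0.414 with at least 20 fragments in each library (chosen after seeing the data). The 2 libraries limit the spread to 1 difference per value, and TUs of few fragments, such as those of many lineage genes under 0.1, are known only to within a few counts.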
